A study of Mus musculus with 12 samples.

Results

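Of 4591 m6A peaks found in both scramble libraries of J1 mouse embryonic stem cells, 517 (11.3%, 95% Wilson interval 10.4 to 12.2%) had no overlapping peak in any of 4 knockdown libraries. The 4591 were themselves part of 7886 peaks in the first scramble list. The 517 regions were chosen by measured values, namely the presence or absence of called peaks. A set 1 scramble peak was taken if it overlapped a set 2 scramble peak by at least 1 nt on the same strand, if no knockdown peak of either set lay over it, and if no set 2 knockdown peak lay over that set 2 peak. Their absence after knockdown is therefore the rule and not a result. The same holds for the size of the scramble peaks, which enters the calling, so those values are given as a description without a test.

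The J1 cells grew on irradiated fibroblast (MEF) feeders. Lentivirus had delivered an shRNA, which was scramble in the controls and targeted Mettl14 or Mettl3 in the knockdowns, and lines of all 3 groups were selected with puromycin. Fragmented poly(A) RNA was pulled down with an antibody to m6A, giving 6 IP libraries, 2 per group. The other 6 libraries carry the label of no antibody and were not analysed here on their own. The IP libraries fall into 2 sets, each with 1 library per group, and within a set both knockdown tables share the scramble library. No source used here says which replicate label belongs to set 1 or set 2. The tables hold peaks and no expression values, so neither the knockdown nor the level of an mRNA can be read from them. Fewer cells with an mRNA, less of it per cell and less methylation of it cannot be told apart. Of 8 stem cell markers, Klf4 and Sox2 had a scramble peak, and of 8 feeder fibroblast markers none had one. In the list of 24 feeder fibroblast markers used below, 2 genes had a scramble peak. None of these markers held a member region.

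N6-methyladenosine is an internal mark of mRNA. It is placed by a writer complex in which METTL3 is the catalytic subunit, METTL14 supports RNA binding and WTAP holds the complex in nuclear speckles. The mark is known to gather in long exons and around stop codons, at a short motif that GGACT represents well, and proteins of the YTHDF family that bind it speed the decay of the mRNA.

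The following stretches, from GENCODE release M21 transcripts (GRCm38, the mm10 build), show what the regions look like. The first 4 are whole set 1 peaks inside coding sequence, the most tagged of those up to 300 nt wide that hold GGACT, which is in capitals. They lay in Rp2, listed under its older symbol Rp2h, at chrX:20376897-20377194 on the plus strand, in Nxph4 at chr10:127526654-127526905 on the minus strand, in Lpar1, a receptor for lysophosphatidic acid, at chr4:58486867-58487117 on the minus strand, and in the predicted gene Gm8765 at chr13:50702013-50702299 on the plus strand.
Rp2: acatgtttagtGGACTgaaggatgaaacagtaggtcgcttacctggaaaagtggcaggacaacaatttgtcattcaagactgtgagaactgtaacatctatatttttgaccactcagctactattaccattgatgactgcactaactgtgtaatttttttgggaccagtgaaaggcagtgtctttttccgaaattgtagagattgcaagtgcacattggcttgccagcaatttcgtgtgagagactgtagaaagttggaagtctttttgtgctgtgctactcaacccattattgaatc
Nxph4: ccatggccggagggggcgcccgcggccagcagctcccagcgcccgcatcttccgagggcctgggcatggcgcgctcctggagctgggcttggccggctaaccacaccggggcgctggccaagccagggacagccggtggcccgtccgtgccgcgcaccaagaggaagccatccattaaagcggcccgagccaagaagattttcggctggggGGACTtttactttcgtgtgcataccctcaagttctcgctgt
Lpar1: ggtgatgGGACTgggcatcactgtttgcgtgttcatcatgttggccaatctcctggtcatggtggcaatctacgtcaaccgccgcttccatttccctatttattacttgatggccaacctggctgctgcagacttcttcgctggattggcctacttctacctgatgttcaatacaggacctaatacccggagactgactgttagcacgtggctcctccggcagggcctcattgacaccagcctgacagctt
Gm8765: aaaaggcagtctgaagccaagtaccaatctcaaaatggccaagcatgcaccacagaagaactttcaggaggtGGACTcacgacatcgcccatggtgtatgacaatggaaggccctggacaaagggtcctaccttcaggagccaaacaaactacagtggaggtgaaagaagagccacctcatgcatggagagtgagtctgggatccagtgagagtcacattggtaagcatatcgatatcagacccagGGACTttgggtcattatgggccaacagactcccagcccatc

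For 8 further regions the 29 nt around the GGACT nearest the peak's midpoint are shown, for signalling and lineage genes and for the m6A genes Wtap and Ythdf2. They lay on the plus strand at chr7:98853348-98853376 for Wnt11 and on the minus strand for the others, at chr12:104471490-104471518 for Gsc, chr17:15375473-15375501 for Dll1, chr9:64020595-64020623 for Smad6, chr1:91412279-91412307 for Hes6, chr11:78159864-78159892 for Traf4, chr17:12967885-12967913 for Wtap and chr4:132186830-132186858 for Ythdf2.
Wnt11: agagaccttggtGGACTtccctgcagatg
Gsc: taaaagcgatttGGACTcggacagctgac
Dll1: tcacctctccgtGGACTgaaagccagacg
Smad6: aggcgcgccccgGGACTctggcgatcccc
Hes6: ggatctgctgggGGACTccctagctgggc
Traf4: ggaagggaggcgGGACTggatctgaaact
Wtap: caagtaccagcaGGACTacatcttctgaa
Ythdf2: gcaagaaaattaGGACTttttttcttaat

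The regions were narrow and carried few tags. A tag is a read assigned to a peak, and enrichment is the fold of IP over the library's own input. Tags, enrichment and false discovery rate (FDR) of the 517 regions are the authors' values for each peak. In set 1 the width ran from 108 to 1851 nt with a median of 457 nt, and in set 2 from 76 to 3709 nt with a median of 489 nt. Tags ran from 8 to 317 with a median of 45 in set 1, and from 10 to 579 with a median of 50 in set 2. Enrichment ran from 4.43 to 389.9 with a median of 19.7 in set 1, and in set 2 from 4.58 to 334.2 with a median of 23.9. The median FDR was 2.72% in set 1 and 4.32% in set 2, in lists that reach 9.99%.

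The 2231 peaks found in all 6 lists were wider and less enriched than the member regions at the median, at 867 nt and 14.4 in set 1 and 915 nt and 13.2 in set 2. The 1843 peaks found in both scramble lists and in part of the knockdown lists lay between, at 570 nt and 16.4 in set 1. The set 1 enrichment of all 2231 peaks, and of 794 of the 1843, is not listed and was solved from the signed fold of the authors' deposited tables. Of the 1843, the 1049 with tags of their own in the tables had a median of 67 tags, against 45 for the members. The 3295 set 1 peaks without a set 2 scramble peak, some with solved enrichment, were narrower and more enriched than the members. Their medians were 375 nt and 24.8 in set 1. Among all set 1 scramble peaks, 4278 had tags of their own, with a median of 41. Narrow width, high enrichment and few tags are thus not particular to the members. Of the peaks grouped by the number of knockdown lists with a peak over them, from 0 to 4, median width was 455.5, 509, 566.5, 632 and 867 nt. Median enrichment in the same order was 20.1, 17.5, 16.1, 15.6 and 14.4, so width rose and enrichment fell at every step. The group at 0 held 538 peaks, of which 21 fell outside the rule. These 21 are counted among the 1843, since a set 2 knockdown peak lay over their set 2 scramble peak.

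**Figure D1:**
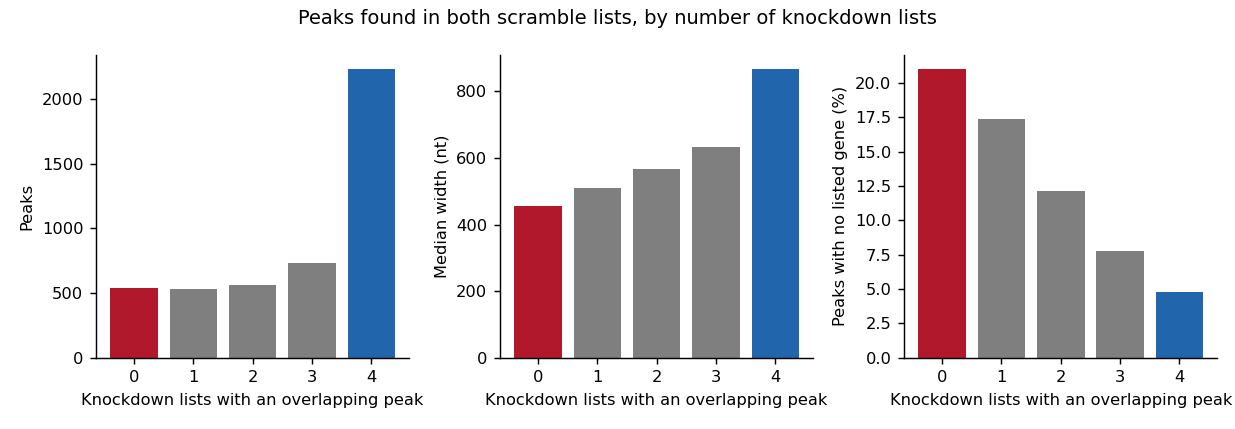
Set 1 scramble peaks that overlap a set 2 scramble peak, by how many of the 4 knockdown lists hold an overlapping peak (x axis); the bars give the number of peaks, their median width in nt and the percent with no gene in the table. The group at 0 holds 538 peaks with a median width of 455.5 nt, and the group at 4 holds 2231 with 867 nt.

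**Figure D2:**
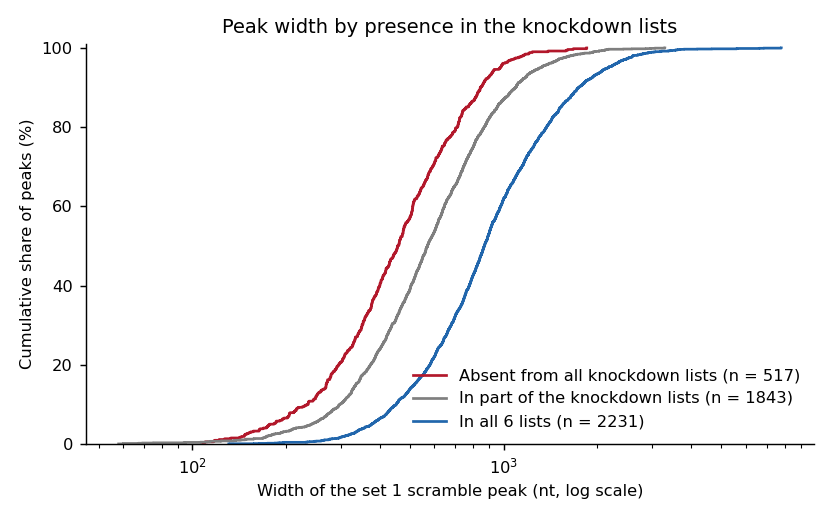
Cumulative percent of peaks (y axis) by width in nt on a log scale (x axis) for the 517 member regions, the 1843 peaks in part of the knockdown lists and the 2231 peaks in all 6 lists. The curve of the member regions lies to the left, with a median of 457 nt.

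Absence differed between the knockdown lists. Of all set 1 scramble peaks, 43.3% had no peak over them in the Mettl14 list of their set and 45.4% none in the Mettl3 list. Of the set 2 scramble peaks the shares were 45.9% and 41.9%. Within the 4591 peaks of both scramble lists, 24.6% were absent from the Mettl14 list and 26% from the Mettl3 list of set 1. For the lists of set 2 these shares were 38.4% and 32.9%. All 4 shares use set 1 peak coordinates, so only set 1 lists were compared with the scramble peaks of their own set. The 4 lists held between 4367 and 5717 peaks, fewer than either scramble list except that the largest exceeded the 5438 of set 2. Library depth is not in the tables, and its part in the absences was not tested. Members had a median gap of 51067 nt to the nearest knockdown peak on the same strand. For 382 (73.9%) the gap was at least 10000 nt, and for 13 it was under 100 nt. The rule keeps knockdown peaks off the members, and gaps of other peaks are not given, so nothing is read from these distances.

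The edge of the rule was sharp by construction. Just inside it, an unassigned region on chromosome 16 lay 9 nt from a knockdown peak, and regions in Nrxn2, a presynaptic adhesion protein gene, and Usp6nl each lay 11 nt from one. Just outside it, an unassigned peak on chromosome 4 was overlapped by 4 nt, one in Pfkfb4, which encodes an enzyme that sets fructose-2,6-bisphosphate, by 30 nt, and one in E430018J23Rik by 39 nt. In all, 22 peaks were kept out by overlaps under 100 nt.

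Values of the same regions were correlated between the scramble libraries. Across the 517 regions, Pearson's r between sets was 0.80 for log2 enrichment, 0.88 for log2 tags and 0.74 for log2 width, and Spearman's rho was 0.84, 0.89 and 0.74. These are descriptions across regions, which share their libraries, and both peaks of a region had to be called. Enrichment was higher in set 1 for 179 regions (34.6%), and the median log2 difference of set 1 minus set 2 was -0.22. One of the 2 scramble peaks lay wholly inside the other for 302 regions (58.4%), and the smallest overlap was 74 nt. The 517 set 1 peaks were paired with 510 set 2 peaks, so a few regions share a partner.

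Enrichment and tags ran against each other, with r = -0.82 in set 1 and -0.87 in set 2 on log2 scales. At one end were 75 regions (14.5%) with at least 100 tags in both sets. Their median enrichment was 7.63 and 8.23, their median width 737 nt, and none lacked a gene in the table. At the other end were 72 regions whose geometric mean enrichment reached 100. They had median tags of 17 and 18 and a median width of 240.5 nt, and 37 of them had no gene. High enrichments repeated as identical values, with 160.55 in 6 regions and 208.35 in 4.

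**Figure D3:**
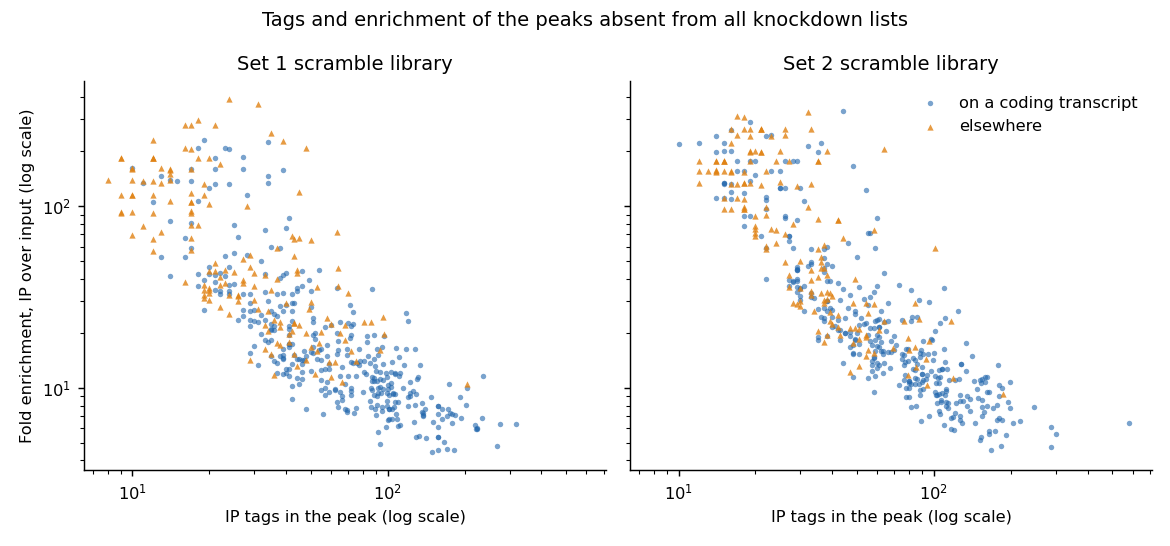
Enrichment of IP over input (y axis, log scale) against tags (x axis, log scale) for the 517 regions in each scramble library; circles lie on a coding transcript and triangles elsewhere. Enrichment falls as tags rise in both libraries, and the triangles gather at few tags.

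Among the most tagged regions, Traf4, a signalling adaptor of the TNF receptor-associated family, had 317 tags in set 1 and 288 in set 2, at enrichments of 6.31 and 4.76. Its peak covered the stop codon window at chr11:78159481-78160643, minus strand. Pgp, a phosphoglycolate phosphatase gene, had 274 and 288 tags at enrichments of 6.34 and 6.13. Rapgef1, an exchange factor for Rap1, had 268 and 300 tags at 4.8 and 5.57. These are wide regions of low enrichment, seen at close to the same size in both scramble libraries.

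Hes6, a bHLH transcription factor of neurogenesis, had 235 and 246 tags at enrichments of 6.88 and 7.85, over its stop codon. Wtap, which encodes the writer complex subunit named above, had 223 and 192 tags at 6.02 and 5.55. Ogfr, an opioid growth factor receptor gene, had 224 and 204 tags, and Sart3, an RNA-binding recycling factor of spliceosomal snRNPs, had 221 and 218. Mid1ip1, a regulator of lipogenesis, had 220 and 199 tags, Grasp, a postsynaptic scaffold gene, 205 and 199, and Noa1, a mitochondrial GTPase gene, 203 and 195. Of the 10 genes, Wtap had other peaks in all 4 knockdown lists, and the other 9 had no peak in any of them.

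Among the regions with the highest enrichment and at least 20 tags in both sets, the first lay at chr8:70610442-70610694 on a noncoding transcript, Gm45546, with 24 and 21 tags and enrichments of 389.9 and 198.6. Gm20632, a noncoding gene, followed with 31 and 21 tags at 367.0 and 131.3. Nrg2, a neuregulin ligand of ERBB receptors, had 39 and 36 tags at 158.1 and 222.8 in coding sequence. Wnt11, a ligand of noncanonical Wnt signalling, had 21 and 26 tags at 160.55 and 176.5 over its stop codon.

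Chst5, a sulfotransferase gene, had 21 and 25 tags at 131.8 and 125.9. Map3k14, the kinase of noncanonical NF-kB signalling, had 46 and 44 tags, and of these 10 its enrichment differed most between sets, at 36.2 and 334.2. The other 4 of the 10 had no listed gene.

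Member regions were also looked up in lists of known genes. The 9 lists examined had 123 genes with a peak in both scramble lists, and 12 of them (9.76%) held a member, against 12.1% (408 of 3380) of all such genes. The single lists hold few such genes, and no list was tested. Among 18 germ layer and lineage factors, 4 had one, namely Gsc, Hes6, Nkx6-2 and Sox7. A member was also held by 3 of 39 developmental signalling genes (Dll1, Lrp5 and Smad6), 2 of 9 cadherin genes (Celsr2 and Celsr3), 2 of 10 m6A genes (Wtap and Ythdf2) and 1 of 11 p53 and stress genes (Gadd45b). None of 25 chromatin regulators and none of 11 pluripotency genes did, nor did the 1 gene of the feeder list with such a peak, and no gene of the housekeeping list had such a peak.

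Gsc, the organiser homeobox factor, had 23 and 18 tags at enrichments of 208.35 and 77.5 over its stop codon. Sox7, an endoderm factor, had 17 and 20 tags at 137.6 and 176.5 in its 3′ UTR. Nkx6-2, a neural homeobox factor, had more tags, 105 and 121, at 9.41 and 11.2. None of these 3 genes had a peak in a knockdown list.

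Dll1, a Notch ligand, had 24 and 29 tags at 34.0 and 178.2 in its 5′ UTR, and 3 knockdown lists held another peak of the gene. Lrp5, a Wnt co-receptor, had 178 and 183 tags at 6.41 and 4.78 and no peak in a knockdown list. Smad6, an inhibitor of BMP signalling, had 52 and 106 tags at 20.2 and 22.8. Gadd45b, a stress-induced gene, had 88 and 96 tags at 11.0 and 29.8. Ythdf2, the m6A reader that promotes mRNA decay, had 40 and 29 tags at 12.1 and 46.5, on an alternative transcript, while all 4 knockdown lists held another peak of the gene.

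Celsr2 and Celsr3, seven-pass cadherins of planar cell polarity, each had a member in coding sequence and other peaks in all 4 knockdown lists. Celsr2 had 45 and 60 tags at 14.5 and 36.3, and Celsr3 had 40 and 56 tags at 43.1 and 18.2. In these genes 1 region met the rule while others of the same gene were called after knockdown.

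The 517 regions named 408 genes, of which 384 are protein coding in GENCODE. One member was held by 395 genes, 2 by 12 genes and 3 by Zfp704, a zinc finger gene. Its 3 regions all lay in the 3′ UTR, with 78, 91 and 126 tags in set 1 and 78, 105 and 104 in set 2. The 2 regions of Fam75d3 share 1 set 2 partner and belong to a multicopy family, so their assignment is uncertain. For 245 of the 408 genes (60.0%) no knockdown list held any peak, and 71 (17.4%) had a peak elsewhere in the gene in all 4. Of all 3380 genes with a peak in both scramble lists, 249 (7.37%) had no peak in a knockdown list and 1985 (58.7%) had one in all 4. The rule favours genes without knockdown peaks, so nothing is read from this difference.

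In the peaks of these genes that scramble and knockdown shared, the signed fold of the authors' deposited tables was close to that of all shared peaks. Only part of the genes had such peaks. In set 1 they were 107 genes for Mettl14 and 120 for Mettl3, and in set 2 they were 83 and 82. Genes with no peak in a knockdown list cannot enter these values. For Mettl14 in set 1 the median log2 value in the authors' deposited tables was -0.05 for member genes and -0.06 for all. For Mettl3 in set 1 the authors' deposited tables gave 0.14 and 0.22. In set 2, which uses another scramble library, the authors' deposited tables gave -0.64 and -0.59 for Mettl14 and -1.01 and -0.91 for Mettl3. The sign for Mettl3 thus differed between sets, for member genes as for all genes.

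Fewer member regions lay in coding sequence, and more lay off mRNA, than among peaks found in all 6 lists, and in this they were like peaks found in 1 scramble list only. Set 1 peaks that touched an exon on the same strand were placed by the midpoint of their exonic part on the transcript. Introns, opposite strands and places outside genes hold only peaks that touched no such exon. By this placing, 170 (32.9%, 95% interval 29.0 to 37.0%) lay in coding sequence, against 60.9% (58.8 to 62.9%) of the peaks in all lists. The stop codon window, 100 nt either side, held 72 (13.9%) against 11.2%, the 3′ UTR 95 (18.4%) against 19.5% and the 5′ UTR 24 (4.64%) against 2.20%. Noncoding transcripts held 30, introns 38, the opposite strand of an exon 29, that of an intron 12, and 47 lay outside genes. Members with no gene in the table numbered 109 (21.1%, 17.8 to 24.8%), against 4.75% (3.94 to 5.71%) of peaks in all lists. Of the 1843 peaks in part of the knockdown lists, 44.5% lay in coding sequence and 12.0% had no gene. Of the 3295 set 1 scramble peaks without a set 2 scramble peak, 32.0% lay in coding sequence and 22.5% had no gene, so these shares are not particular to the members. The class was the same by both scramble peaks for 482 regions (93.2%).

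The difference was smaller among peaks of like width. Of peaks of any width on coding transcripts, coding sequence held 47.1% (42.0 to 52.2%) of members and 65.0% (62.9 to 67.0%) of peaks in all lists. The stop codon window held 19.9% (16.1 to 24.4%) and 11.9% (10.6 to 13.4%). Among those 300 to 600 nt wide, coding sequence held 45.1% (38.2 to 52.1%) of members and 49.6% (44.7 to 54.6%) of peaks in all lists, and the intervals overlap. There the stop codon window held 23.8% and 22.8%. At these widths 16.5% (12.5 to 21.5%) of members and 10.5% (8.05 to 13.7%) of peaks in all lists had no gene, again with overlapping intervals. On a coding transcript lay 74.2% (68.6 to 79.2%) of members of these widths and 85.9% (82.4 to 88.8%) of peaks in all lists. Those intervals do not overlap. Among peaks with a set 1 enrichment of 10 to 20, the gap remained, with coding sequence at 44.9% against 64.5% of those on coding transcripts and 11.2% against 3.68% without a gene.

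**Figure D4:**
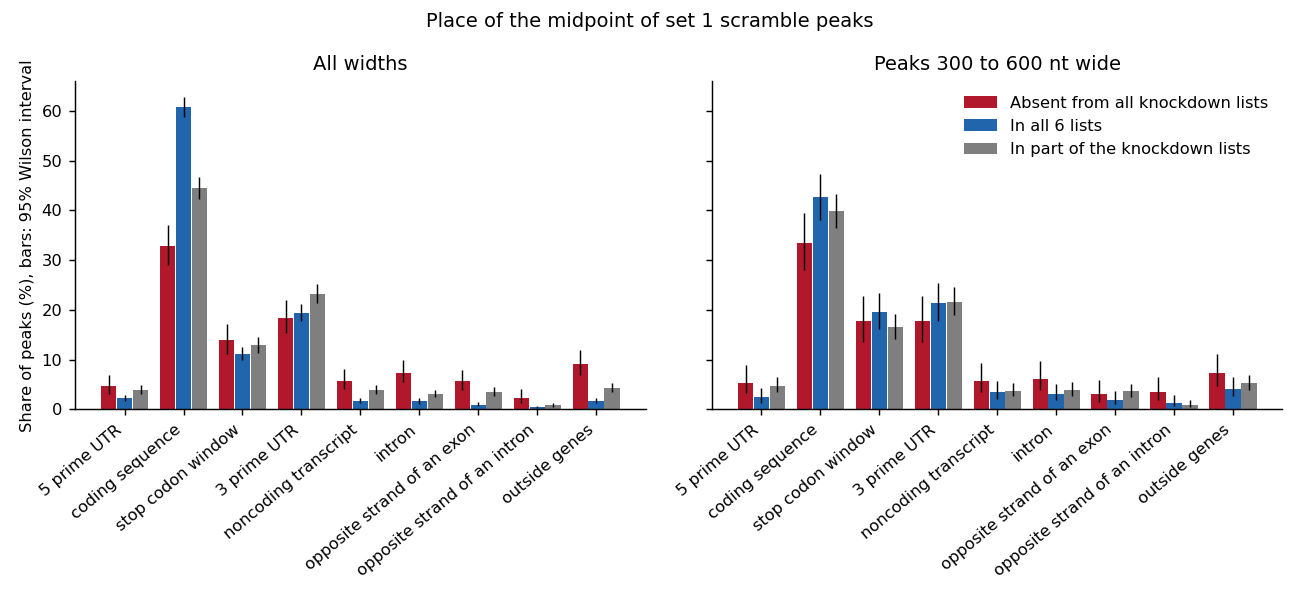
Percent of set 1 scramble peaks (y axis) in each place (x axis), with 95% Wilson intervals, at all widths and at 300 to 600 nt. Shown are member regions, peaks in all 6 lists and peaks in part of the knockdown lists. Peaks that touch an exon on the same strand are placed by the midpoint of their exonic part. The gap in coding sequence, 32.9% against 60.9%, is smaller at matched widths, 33.5% against 42.6%.

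Along coding transcripts, each segment was divided into 10 equal bins. Members were most frequent in the first bin of the 3′ UTR, with 58 (16.1%), and the last bin of the coding sequence, with 41 (11.4%). The same bins held 10.8% and 10.4% of peaks in all lists. Within 400 nt of the stop codon lay 44.3% (39.3 to 49.5%) of members and 41.9% (39.8 to 44.0%) of peaks in all lists. The exon at the midpoint had a median length of 1397 nt against 2011.5 nt, and the transcript 3492 nt against 4462 nt. GC content of the central 200 nt was the same at the median, 56%.

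Of the 29 members opposite an exon, 11 had a peak on the other strand in at least 1 of the 6 lists, against 16 of all 517 members (3.09%). The part of reads from the other strand in these regions was not tested.

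The share of members with GGACT near the midpoint differed from that of peaks called in every library by less than the intervals. Read on the transcript strand, it occurred in the central 200 nt of 125 of 391 members on transcripts (32.0%, 27.5 to 36.7%). Of 2128 windows of the same length from peaks in all lists, 34.5% (32.5 to 36.5%) held it. Its reverse complement, counted in the same windows, was in 17.4% and 18%. The set 2 peaks of the members gave 34.4%. At the stop codon GGACT was in 43.1% of members and 42.6% of peaks in all lists, in coding sequence in 25.3% and 31.1%, and in the 3′ UTR in 29.5% and 40.1%, with overlapping intervals each time.

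Of related pentamers on the same strand, GGACA was in 37.6% of members and 38.3% of peaks in all lists, GGACC in 37.6% and 31.3%, GAACT in 24.3% and 22.6% and AGACT in 33.0% and 28.3%. For all 4 the intervals overlap, for GGACC only narrowly, and no difference was tested. A window can hold several of them, and a match is only a string of letters. Over whole peaks GGACT stood at 1.68 copies per kb in members and 1.65 in peaks in all lists. It was in 53.2% of member peaks and 76.3% of the others, which are wider. Its density was highest just downstream of the midpoint, at 2.23 copies per kb in members and 2.32 in peaks in all lists, while the reverse complement stayed at 0.97 and 1.13 there.

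**Figure D5:**
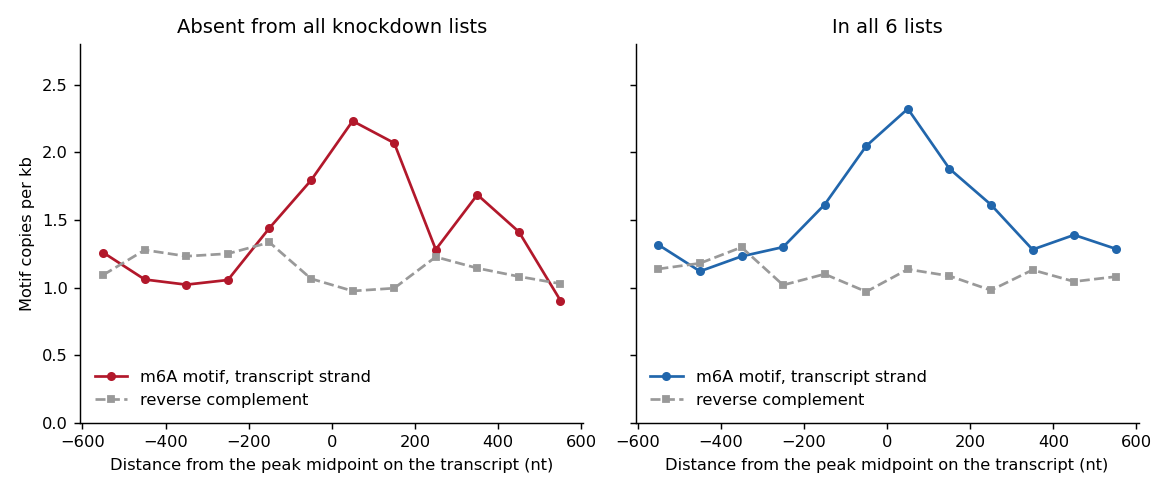
Copies per kb of the m6A motif (solid line) and of its reverse complement (dashed line) by distance in nt from the peak's midpoint on the transcript, for member regions and for peaks in all 6 lists. Both solid lines peak between 0 and 100 nt, at 2.23 and 2.32 copies per kb.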

How the data were processed

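The members and gene lists were chosen with earlier results of these data known. The build was mm10, and the tools named by the submitters' processing notes are Picard 1.74, SAMtools 0.1.18, TopHat2 2.0.6, Bowtie 0.12.7, cutadapt 1.1 and CASAVA 1.8.2. The authors deposited 4 tables, each with the peaks of a knockdown and a scramble IP. Each peak carries, per the file headers, MACS names, a tag count, a fold enrichment ratio of IP over its own input and an FDR in percent. Per the file headers, a signed fold score compares knockdown with scramble for shared peaks, from which the scramble enrichment of those peaks was solved; their own tags and FDR are not in the tables. The tables give no library totals, and depth is unknown.

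Peaks were intersected with Python 3.11.15 and pandas 2.3.3, with at least 1 nt on the same strand. Midpoints of the exonic part of a peak were placed on GENCODE M21 transcripts. The listed gene came first, then a coding transcript, then the longest coding sequence among those covering at least 80% of the best exonic overlap. Of 408 gene IDs, 401 matched. Wilson intervals (scipy 1.17.1, 95%) cover counting error only, and no p-value was computed. Overlapping intervals do not show that shares are equal. Named regions were the 10 most enriched with at least 20 tags in both sets, the 10 most tagged, genes with 3 members, genes of the lists and the edges of the rule. The rule and the motif count were tested on simulated data. Alternatives were other overlaps, extension, strand, FDR limits, windows and leaving out libraries. Bands of width and enrichment were chosen after seeing the data.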

Additional observations from a re-analysis of the deposited data

How the results depend on the processing

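The number of regions stayed between 507 and 517 when overlap had to reach 50% of the shorter peak, peaks were extended by 100 nt, strand was ignored or any list over either peak counted; the last gave 512 and extension 509. With an FDR of at most 5% in all lists it was 343, or 9.18% of the peaks in both scramble lists, with median width 516 nt and 63 tags. With an FDR of at most 1% for scramble peaks 10 regions and 7 genes were left, or 0.385%, with median width 566.5 nt, 62 tags, GGACT in 25%, none (0%) at the stop codon and 0 genes with peaks in all 4 knockdown lists. Scramble peaks shared with a knockdown library have no FDR in the tables and could not be removed, so the share at 1% is low by construction. The 5% limit also removed knockdown peaks, which can add members, so the direction of that share is not fixed by construction. Leaving out a knockdown library or all libraries of a set gave 590 to 2720 regions, 461 to 1846 genes, shares of 12.9 to 15.0% (knockdown libraries only), median widths of 378.5 to 468 nt, enrichments of 19.4 to 29.5, tags of 34 to 50, GGACT in 30.7 to 33.9%, stop codon shares of 11.6 to 15.1% and 87 to 339 genes with peaks in all 4 lists. That gene count was still made over all 4 lists, and a peak of a list left out may lie over the region itself. Without the libraries of set 2, 2720 regions met the rule, and without those of set 1, 1802. With the Mettl14 list of set 1 left out of the rule, the number of genes with peaks in all 4 knockdown lists was 109, against 71. A window of 100 nt held GGACT in 17.9% and one of 400 nt in 50.8%. At widths of 300 to 600 nt GGACT was in 40.4% and the stop codon window held 17.7%. For peaks in all 6 lists at these widths the shares were 45.0% and 19.6%. No paired analysis was possible because the results come from no test; scramble and knockdown libraries are known to belong together by set, though not by the labels' replicate number.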
